A study of Mus musculus with 2 samples.

Results

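The BCL2 family decides whether a cell keeps its mitochondria intact or commits to apoptosis, and 10 of its genes were followed here in a mouse plasmacytoma line, among 43346 features of the deposited table. They were taken by symbol and fall into 3 roles: the guardians Mcl1, Bcl2 and Bcl2l1, the effectors Bax and Bak1, and the BH3-only genes Bid, Bmf, Bcl2l11, Bbc3 and Pmaip1. All 10 were found, each in 1 row. The untreated group was 1 library of X63/0 (X63-Ag8.653) cells, and the cycloleucine group was 1 library of the same line after 3 h in 30 mM cycloleucine. X63/0 is a non-secreting myeloma line used as a fusion partner for hybridomas, and cycloleucine blocks the enzyme that makes S-adenosylmethionine from methionine. Both libraries came from 1 cell line, so the line stands for itself and not for plasma cells at large. Cycloleucine was added as a solution in culture medium, and the sources do not say whether the untreated cells got an equal volume of it. The design text tells of an experiment done in triplicate, and 1 library for each condition was analysed here. A single library has no replicate spread, so the conditions are compared by their values with no test.

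In healthy cells the guardians hold the effectors in check at the outer mitochondrial membrane. When BH3-only proteins accumulate or are activated they occupy the guardians, and some also engage the effectors directly. Freed BAX and BAK then oligomerise, open the membrane and release cytochrome c, which starts the caspase cascade. The guardians differ in which BH3-only proteins they bind, and MCL1 is a short-lived protein on which normal plasma cells are known to depend.

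What joins the 3 roles is the BH3 core, the short helix by which members bind each other. Its coding sequence is shown for 9 members, because the family shares it while the RNA levels differ widely. Pmaip1 also encodes a BH3 region, and its sequence is not shown. The sequences were read from the GENCODE M21 protein-coding transcript with the longest coding sequence (GRCm38, the same assembly as mm10), 36 bases each, 5′ to 3′ on the coding strand. Capitals mark the codon of the conserved leucine and, after 3 further codons, those of a glycine or alanine and of the conserved aspartate.
Mcl1 (chr3:95659427-95659462, plus strand): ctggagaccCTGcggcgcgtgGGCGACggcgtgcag
Bcl2l1 (chr2:152829697-152829732, minus strand): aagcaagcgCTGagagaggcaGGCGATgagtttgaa
Bcl2 (chr1:106712575-106712610, minus strand): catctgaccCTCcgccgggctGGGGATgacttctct
Bax (chr7:45465997-45466032, minus strand): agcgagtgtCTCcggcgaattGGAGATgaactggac
Bak1 (chr17:27022531-27022566, minus strand): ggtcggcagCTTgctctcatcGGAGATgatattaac
Bid (chr6:120897289-120897324, minus strand): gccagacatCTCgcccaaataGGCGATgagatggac
Bcl2l11 (chr2:128147141-128147176, plus strand): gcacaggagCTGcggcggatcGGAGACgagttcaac
Bbc3 (chr7:16313764-16313799, plus strand): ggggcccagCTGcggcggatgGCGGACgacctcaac
Bmf (chr2:118545100-118545135, minus strand): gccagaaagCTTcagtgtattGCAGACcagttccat
Each of these stretches lay within 1 coding exon, and the pattern occurred 1 time in the coding sequence of each of the 9 genes. The same pattern was found in 24.0% of 21380 mouse coding genes, and in 10.9% of the 8694 with a coding sequence no longer than that of Mcl1, so the letters alone do not define a BH3 core. The residue before the aspartate was an alanine in Bbc3 and Bmf and a glycine in the other members shown.

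Reads assigned to genes numbered 27127865 without and 31951946 with cycloleucine. Of these, 64.5% and 62.97% were uniquely placed. The plasma cell identity of the line was visible in its RNA. All 8 plasma cell markers examined (Sdc1, Xbp1, Prdm1, Irf4, Tnfrsf17, Slamf7, Mzb1 and the J chain gene, listed as Igj) lay between 7.71 and 398 RPKM in the untreated library, where RPKM is the deposited level, exon reads divided by the exon length and by the library's total of gene reads, with the usual scale factors. Among B cell markers, Cd79b (50.5 and 52.6 RPKM) and Ms4a1 (3.03 and 3.11) were above 1 RPKM, while Cd79a and Pax5 had at most 2 exon reads in either library. The summed level of 5 T cell markers was 0.419 RPKM without and 0.534 with cycloleucine, that of 5 myeloid markers 1.45 and 1.43, mostly Cd68, and that of 4 fibroblast markers 0.266 and 0.260. Cd3d and Emr1 were at 0 reads in both. The libraries are bulk RNA, in which fewer cells of a type and less RNA per cell cannot be told apart.

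Among the guardians, Mcl1 had the highest RPKM before treatment, Bcl2l1 was close behind, and Bcl2 was nearly silent. Mcl1 (chr3:95658721-95663176, plus strand) stood at 46.3 RPKM in the untreated library, from 4380 exon reads. Bcl2l1, which encodes BCL-XL (chr2:152780668-152831728, minus strand), stood at 35.8 RPKM from 4455 exon reads. Bcl2, the founding member of the family (chr1:106538178-106714274, minus strand), had 0.415 RPKM from 103 exon reads spread over 9157 bases of exon. Mcl1 was thus 112-fold above Bcl2 (95% counting interval 91.9 to 137) and Bcl2l1 86.4-fold (71.0 to 106), whereas Mcl1 exceeded Bcl2l1 by 1.29-fold (1.24 to 1.35). Of the summed guardian RPKM, Mcl1 made up 56.1%, Bcl2l1 43.4% and Bcl2 0.502%. Counting intervals here and below cover the sampling of reads only. They say nothing of the spread between cultures, and reads amplified by PCR with no molecular identifiers can be copies of each other.

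**Figure D1:**
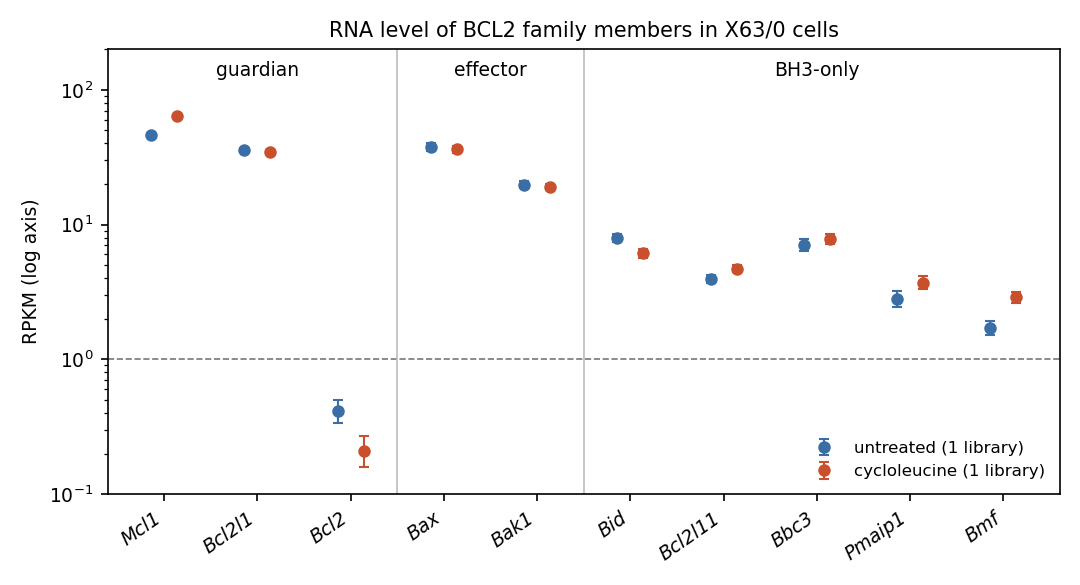
RPKM of each member (log axis) in the untreated and the cycloleucine library, by role, 1 library each. Bars are 95% exact Poisson intervals of the exon reads and the dashed line is 1 RPKM. Mcl1, Bcl2l1 and Bax lie highest, and Bcl2 is the only member under the line.

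The lead of Mcl1 over Bcl2l1 in untreated cells depended on what counts as the length of a transcript. The deposited exon length joins all annotated exons of a gene, 3485 bases for Mcl1 and 4586 for Bcl2l1, whose longest GENCODE transcript has 2568 bases against 3418 for Mcl1. Scaled to the longest transcript, Bcl2l1 had 63.9 on the RPKM scale against 47.2 for Mcl1, and the order turned round, with a ratio of Mcl1 to Bcl2l1 of 0.739 (0.708 to 0.770). The reads of Bcl2l1 were still those of all 4586 bases, so this scaling can overstate Bcl2l1, and 63.9 is an upper bound for that transcript. Uniquely placed reads that span a splice junction, and so stem from spliced RNA and need no exon length, numbered 330 for Mcl1 and 193 for Bcl2l1. The coding transcript of each has 2 introns, so this was 165 and 96.5 reads per intron and a ratio of 1.71 (1.43 to 2.05). Which of these guardians had more RNA at baseline was therefore not settled by these data, and that Bcl2 had little held by each measure.

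In the cycloleucine library Mcl1 was the highest guardian by all 4 measures. Its RPKM was 64.2, against 34.9 for Bcl2l1, a ratio of 1.84 (1.78 to 1.91). By the longest transcript the ratio was 1.05 (1.01 to 1.09) and by junction reads per intron 2.95 (2.51 to 3.47). Within each measure the ratio was higher in the cycloleucine than in the untreated library. Mcl1 made up 64.7% of the summed guardian RPKM in the treated cells.

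**Figure D2:**
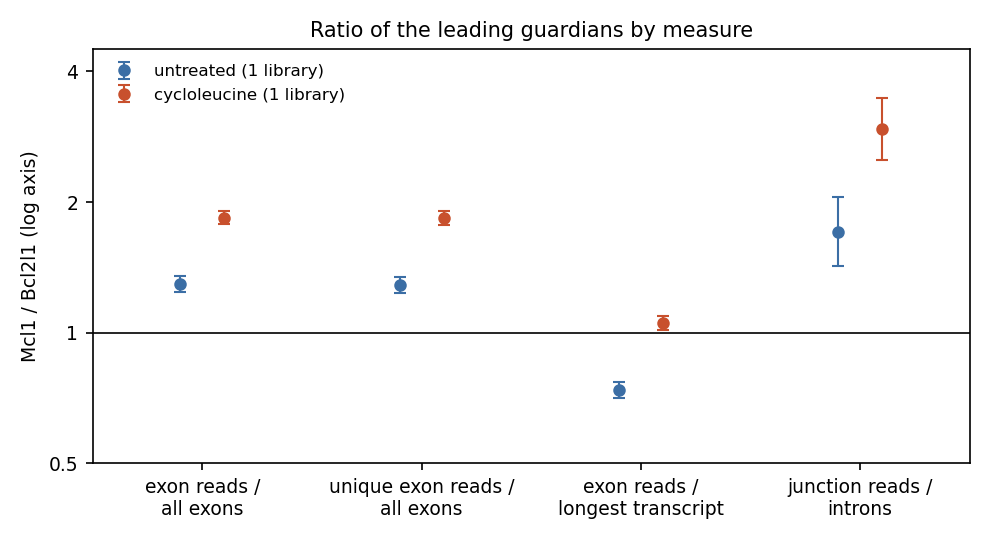
Ratio of Mcl1 to Bcl2l1 (log axis) within each library by 4 measures, with 95% exact counting intervals. Scaling to all annotated exons or counting junctions puts Mcl1 above Bcl2l1, and scaling to the longest transcript puts it below 1 in the untreated library (0.739) and near 1 in the cycloleucine library (1.05).

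Across the family, the difference between the libraries was modest. Features entered the comparison with an annotated transcript, at least 1 RPKM in either library and at least 50 exon reads over both, 9081 in all. Of the 10 members 9 passed, and Bcl2 did not. At least 1.5-fold higher in the cycloleucine library was 1 of the 9, Bmf, where 2.41% of all kept features were so. At least 1.5-fold lower were 0 of the 9, against 2.11%. The counting interval of the ratio lay above 1 in 4 of the 9 (Mcl1, Bcl2l11, Pmaip1 and Bmf), against 22.5% of kept features, and below 1 in Bid, against 21.1%. The median log2 ratio was 0.14 over the 9 members and 0.0023 over all kept features. The middle 95% of kept features lay between -0.54 and 0.58.

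Of the 2 well expressed guardians, Mcl1 was the one whose counting interval left out 1. Its exon reads were 4380 without and 7145 with cycloleucine, 46.3 and 64.2 RPKM, which made it 1.38-fold higher after cycloleucine (1.33 to 1.44). Of 368 other kept features with at least as many exon reads, 8 had an equal or higher ratio. Junction reads of Mcl1 numbered 330 and 592, a ratio of 1.56 (1.36 to 1.79) relative to all uniquely placed gene reads, so the spliced RNA was higher too. Its intron reads went from 93 to 103, which relative to all gene reads was a ratio of 0.940 (0.703 to 1.26). The exon signal of Mcl1 was thus higher without a matching difference in its introns, which span only 971 bases. The intron share of its gene reads was 2.08% (exact binomial interval 1.68% to 2.54%) without and 1.42% (1.16% to 1.72%) with cycloleucine.

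Bcl2l1 hardly differed between the libraries. It had 4455 and 5107 exon reads, 35.8 and 34.9 RPKM, a ratio of 0.973 (0.935 to 1.01). Its intron reads, 1236 and 1478, gave a ratio of 1.02 (0.941 to 1.10), and its junction reads, 193 and 201, gave 0.905 (0.739 to 1.11). Each of these intervals holds 1. Introns held a much larger part of the reads of Bcl2l1 than of Mcl1, at 21.7% and 22.4% of its gene reads in the untreated and treated cells, over 46475 bases of intron.

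Bcl2 stayed below the filter in both libraries. Its exon reads were 103 and 61, 0.415 and 0.208 RPKM, 1.99-fold lower after cycloleucine (1.44 to 2.78). Only 68.9% of the exon reads without and 83.6% with cycloleucine were uniquely placed. Introns held most of its gene reads, 156 of 259 in the untreated and 131 of 192 in the treated cells, and a read across its splice junction was seen 1 time without and 0 times with cycloleucine. Its coding transcript has 1 intron in 7191 bases, so few junction reads can arise from 103 and 61 exon reads. Counts of 1 and 0 therefore cannot show how much of the exon signal was spliced RNA, and no fold of junction reads is given. By length, exon reads were denser than intron reads, at 0.415 against 0.0344 on the RPKM scale in the untreated library. In the cycloleucine library these values were 0.208 and 0.0246. With 1 added to each RPKM the log2 ratio of Bcl2 was -0.23, against -0.99 from the plain values.

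The effectors, which form the membrane pore, were at like levels in both libraries. Bax (chr7:45461695-45466898, minus strand) had 884 and 1005 exon reads, 37.5 and 36.2 RPKM, a ratio of 0.965 (0.881 to 1.06). By deposited RPKM the untreated ratio of Bax to Bcl2l1 was 1.05 (0.973 to 1.13), but it was 0.463 (0.431 to 0.498) by the longest transcript and 0.597 (0.496 to 0.720) by junction reads per intron, which both put Bax lower. The longest GENCODE transcript of Bax has 1100 bases, and its reads were counted over 869 bases of deposited exon. The value of 0.463 therefore understates Bax, whose longest coding transcript has 867 bases. Junction reads of Bax were 288 and 368, a ratio of 1.11 (0.949 to 1.30), while its intron reads were 163 and 153, a ratio of 0.797 (0.635 to 0.9998). The exon and junction intervals of Bax held 1, and its intron interval ended just below it.

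Bak1, the other effector (chr17:27019810-27029009, minus strand), had 1291 and 1460 exon reads, 19.8 and 19.0 RPKM, and a ratio of 0.960 (0.890 to 1.04). Bax exceeded it by 1.90-fold (1.74 to 2.07) in the untreated cells. Its level is uncertain, because the whole gene lies inside the span of Ggnbp1 on the opposite strand and only 15.3% and 16.2% of its exon reads were uniquely placed. Those unique reads, 197 and 237, were in number equal to its junction reads and gave a ratio of 1.05 (0.862 to 1.27). Counted from unique reads alone Bak1 stood at 3.02 RPKM without and 3.08 with cycloleucine. With unique and junction reads equal in number, these values are a lower bound and not a second estimate of its level. Per intron, Bak1 had 39.4 junction reads in the untreated library, against 57.6 for Bax. Its intron reads were 20 and 76, none of them uniquely placed, a ratio of 3.23 (1.95 to 5.58). Ggnbp1 had 409 and 505 gene reads, and the share of the Bak1 intron reads that came from it was not tested.

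The 5 BH3-only members, sensors of the family, had the lowest summed level of the 3 roles. Their untreated levels ran from Bid at 7.95 and Bbc3 at 7.09 RPKM, which did not differ beyond counting error (ratio 1.12, 0.992 to 1.27), through Bcl2l11 at 3.93 and Pmaip1 at 2.80 to Bmf at 1.71. From Bbc3 down, each exceeded the next by deposited RPKM with a counting interval above 1. The lead of Bbc3 over Bcl2l11 depended on the measure. It was 7.84 against 6.27 by the longest transcript, and junction reads per intron were alike, at 18 and 18.3. In the cycloleucine library Bbc3 came first at 7.81 RPKM, ahead of Bid at 6.14, and Bmf was last again at 2.88. With reads scaled to the longest transcript, Bid led Bbc3 in both libraries, at 11.7 against 7.84 and at 9.02 against 8.64.

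Bmf, whose protein is held on the actin-based myosin V motor through a dynein light chain until stress releases it, showed the largest ratio of the kept members. It lies at chr2:118528757-118549687 on the minus strand. It had 244 and 483 exon reads, 1.71 and 2.88 RPKM, and was 1.68-fold higher after cycloleucine (1.44 to 1.97). Of 6534 other kept features with at least as many exon reads, 13 had an equal or higher ratio. Features with more reads vary less by counting, so such a rank can make a gene of few reads look rarer. Counted alike in its own direction, the share was 3.38% for Pmaip1, 5.32% for Bcl2l11 and 19.6% for Bbc3. It was 28.0% for Bcl2l1, 31.2% for Bak1 and 35.1% for Bax. Exon, junction and intron reads of Bmf moved together. Intron reads were 38 and 76, a ratio of 1.70 (1.14 to 2.58), and junction reads 19 and 36, a ratio of 1.65 (0.920 to 3.04), whose interval holds 1. With 1 added to each RPKM the log2 ratio of Bmf was 0.52, under the 1.5-fold line, and 0.75 from the plain values.

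Pmaip1 encodes NOXA, which binds chiefly MCL1 and A1 among the guardians. It had 201 and 313 exon reads, 2.80 and 3.70 RPKM, a ratio of 1.32 (1.10 to 1.59). Its introns held few reads, 15 and 27, and its junctions 11 and 27, a junction ratio of 2.13 (1.02 to 4.77). Bcl2l11 encodes BIM, which binds every guardian. It had 856 and 1209 exon reads, 3.93 and 4.71 RPKM, a ratio of 1.20 (1.10 to 1.31). Junction reads of Bcl2l11 did not follow, with 55 and 52 and a ratio of 0.822 (0.552 to 1.22), and its intron reads were 265 and 317, a ratio of 1.02 (0.860 to 1.20). The higher exon signal of Bcl2l11 was thus not seen across its junctions, at a depth that leaves a wide interval.

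Bbc3 encodes PUMA, which like NOXA is a known p53 target. It had 386 and 501 exon reads, 7.09 and 7.81 RPKM, and a ratio of 1.10 (0.963 to 1.26), an interval that holds 1. Its junction reads, 54 and 55, gave 0.885 (0.597 to 1.31). The gene for p53 itself, Trp53, stood at 30.1 and 33.1 RPKM (ratio 1.10, 1.05 to 1.15).

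Bid was the BH3-only gene that was lower. BID is cut by caspase 8 and links death receptors to mitochondria. The gene (chr6:120891930-120916853, minus strand) had 766 and 696 exon reads, 7.95 and 6.14 RPKM, and was 1.30-fold lower after cycloleucine (1.17 to 1.44). Of 4401 other kept features with at least as many exon reads, 47 were as low or lower. Its intron reads, 275 and 239, gave a ratio of 0.738 (0.618 to 0.881), and its junction reads, 144 and 107, gave 0.646 (0.498 to 0.835). All 3 kinds of read were thus lower together. The end of Bid overlaps that of Bcl2l13 on the opposite strand by 913 bases, and the exon reads of Bcl2l13 did not differ (7.51 and 7.49 RPKM, ratio 0.997, 0.929 to 1.07).

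**Figure D3:**
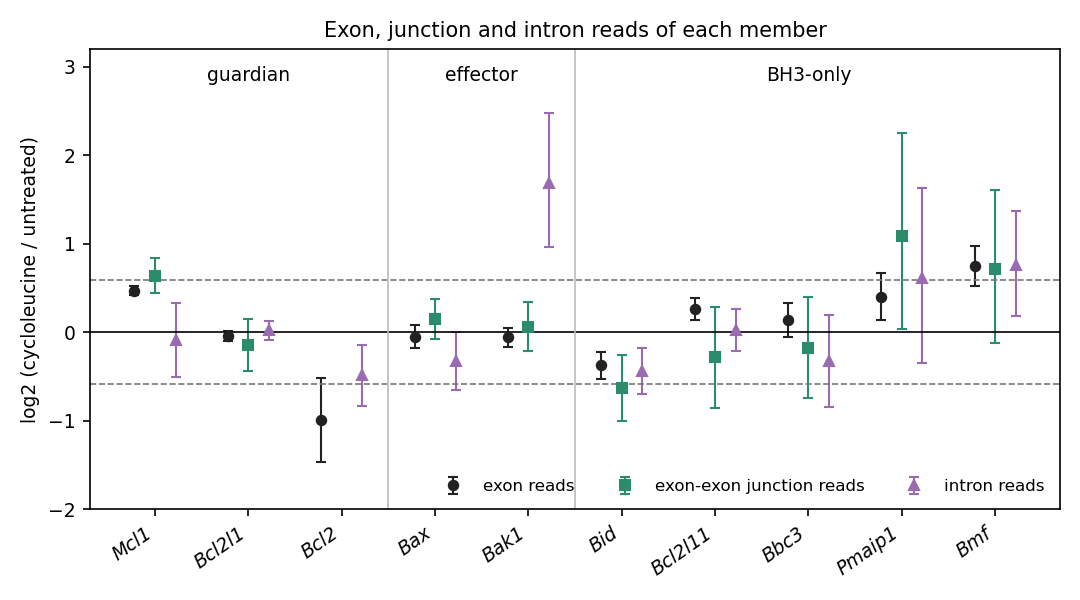
log2 ratio of cycloleucine to untreated reads of each member, scaled by library totals, for exon reads (circles), uniquely placed junction reads (squares) and intron reads (triangles), with 95% exact counting intervals. Dashed lines mark 1.5-fold. No junction ratio is drawn for Bcl2, which had 1 and 0 such reads. The points of Bmf and Pmaip1 lie above 0 and those of Bid below 0 in all 3 kinds of read, while Mcl1 has its intervals above 0 in exon and junction reads only.

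The ratio of intron to exon reads sets both kinds of read of a gene against each other within a library, so a factor that scales a whole library leaves it unchanged. Enough reads for it (at least 100 in introns and 200 in exons over both libraries) were found in 7 members, and not in Bcl2, Bak1 and Pmaip1. Bak1, with 20 and 76 intron reads, none uniquely placed, had a log2 change of 1.72 (1.01 to 2.43). At least 1.5-fold higher or lower were 0 of the 7 in each direction, where 5.16% of 6803 genes were higher and 3.51% lower. Mcl1 came nearest, with a log2 change of -0.56 (-0.97 to -0.15), an interval that leaves out 0. How many of the 6803 genes have such an interval was not counted. The log2 change was -0.47 in Bbc3, -0.28 in Bax, -0.24 in Bcl2l11, -0.06 in Bid, 0.0069 in Bmf and 0.06 in Bcl2l1. Against junction reads in place of all exon reads Mcl1 passed 1.5-fold lower, and the share of all genes that do so was not counted.

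**Figure D4:**
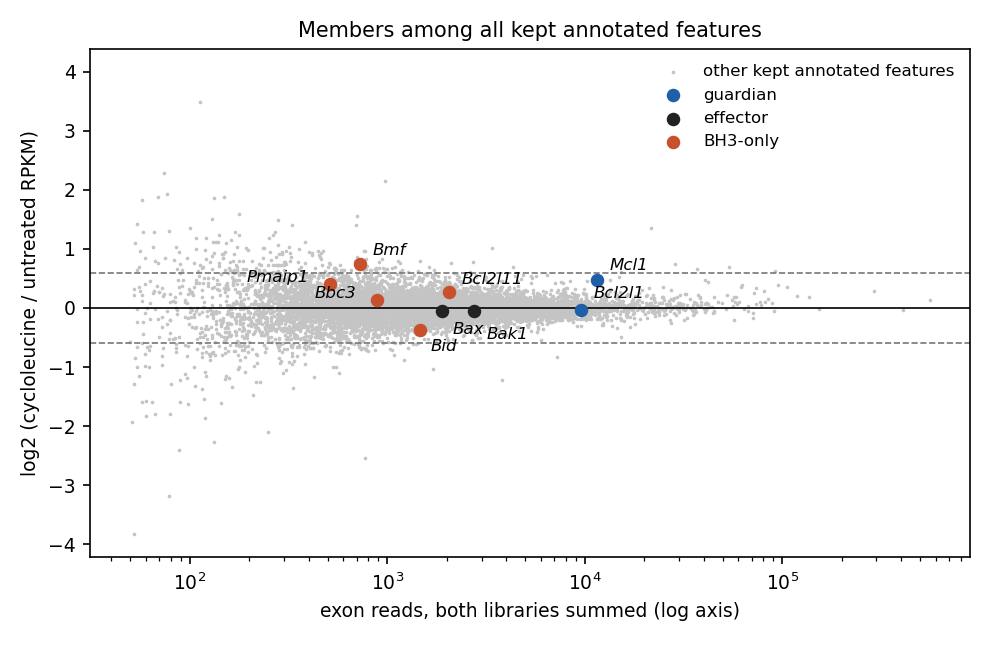
log2 ratio of cycloleucine to untreated RPKM against exon reads (log axis) for the kept annotated features (grey), with the 9 kept members coloured by role. Dashed lines mark 1.5-fold. Bmf lies above the upper line, Mcl1 lies below it among deeply sequenced features, and the other members lie between the lines.

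The window before the start site is shown for Mcl1 and Bmf, because these had the highest exon ratios of the kept members and differ in whether the introns moved as well. Each is 250 bases ending just before the RefSeq start site at the outer end of the deposited gene (GRCm38.p6), 5′ to 3′ on the gene's strand. Capitals mark matches on either strand.
Mcl1 (chr3:95658471-95658720, plus strand): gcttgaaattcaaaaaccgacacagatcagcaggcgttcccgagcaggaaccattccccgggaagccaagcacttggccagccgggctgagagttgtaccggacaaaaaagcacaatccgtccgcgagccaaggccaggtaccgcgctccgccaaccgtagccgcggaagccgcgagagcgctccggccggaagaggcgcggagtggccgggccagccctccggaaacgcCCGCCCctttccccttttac
Bmf (chr2:118549687-118549936, minus strand): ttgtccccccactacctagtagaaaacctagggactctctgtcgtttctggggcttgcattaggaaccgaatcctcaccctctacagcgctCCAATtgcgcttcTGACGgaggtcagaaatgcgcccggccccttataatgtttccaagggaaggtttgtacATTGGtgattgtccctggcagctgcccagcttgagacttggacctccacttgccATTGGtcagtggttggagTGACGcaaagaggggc
The letters searched were TATAAA for the TATA box, CCAAT for the CCAAT box, GGGCGG for the GC box, CACGTG for the E-box, TGACG for a cyclic AMP response half-site and GTAAACA for a FOXO site. The Mcl1 window held 1 GC box, starting at -20 from the start site, and no other match. A GC box was found in 32.7% of 32851 promoter windows. The Bmf window held CCAAT letters at -159, -88 and -34 and TGACG at -146 and -16, and such matches were found in 33.8% and 17.8% of windows. TATAAA was found in 12.4%, CACGTG in 6.02% and GTAAACA in 3.17%. Bases G and C made up 64.4% of the Mcl1 window and 54% of that of Bmf, against a median of 52.4%. RefSeq lists 1 start for Mcl1 and 3 for Bmf, and the libraries do not show which start was used. A match is a run of letters, and binding was not measured.

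Summed by role, the guardians made up 82.6 RPKM in the untreated library (80.8 to 84.3), the effectors 57.3 (54.6 to 60.0) and the BH3-only genes 23.5 (22.4 to 24.5). In the cycloleucine library the sums were 99.2 (97.5 to 101), 55.2 (52.7 to 57.6) and 25.2 (24.2 to 26.2). Among the 10 members guardian RNA was thus 3.52 times BH3-only RNA in the untreated and 3.93 times in the treated cells, and 1.44 and 1.80 times effector RNA. Bad, a BH3-only gene outside the 10, had 5.55 and 5.40 RPKM. It is not in these sums, and with it the ratio to BH3-only RNA would be lower. The ratio to the effectors depended on the measure, at 2.25 and 2.68 by the longest transcript and 2.005 and 2.501 from unique reads. Both of these measures can understate the effectors. The first divides by a Bax length above its counted exons, and the second takes a lower bound for Bak1. The higher guardian sum came from Mcl1, since the values of Bcl2l1 and Bcl2 were not higher. From unique reads alone the effector sum was 40.5 and 39.2, because of Bak1. RNA sums give no ratio of proteins, which were not measured.

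Most other members of the family were too low to be kept. Of 17 further family genes 5 were kept, and 0 passed 1.5-fold in either direction (median log2 -0.04). Of all kept features 2.41% were that much higher and 2.11% lower. In lists as short as this and those below, a count of 0 is near those shares. Bad, a BH3-only gene controlled by phosphorylation, had 5.55 and 5.40 RPKM (ratio 0.973, 0.831 to 1.14). Bnip3l, a mitophagy receptor, was at 4.80 and 4.95, Becn1, an autophagy gene with a BH3 region, at 5.57 and 4.73 (0.849, 0.779 to 0.925, with 40.2% of reads uniquely placed), and Bcl2l12 at 1.72 and 1.35. The remaining guardians had few exon reads or none. Bcl2l2 had 31 and 18, with 14.3% of them uniquely placed, Bcl2a1c 1 and 0, and Bcl2a1a, Bcl2a1b, Bcl2a1d and Bcl2l10 had 0 in both. The third effector-like gene, Bok, had 0 and 1 reads, and the BH3-only genes Hrk and Bik had 2 and 2 and 1 and 7.

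Downstream of the mitochondria, all 13 apoptosome, caspase and released factor genes were kept and 0 passed 1.5-fold (median log2 -0.05). Cycs, cytochrome c itself, had 16.0 and 18.7 RPKM (ratio 1.17, 1.09 to 1.247), with 9.38% of its reads uniquely placed. Casp2 was at 2.53 and 3.14 (1.24, 1.10 to 1.39). Htra2, a protease that antagonises inhibitors of apoptosis, was at 27.9 and 22.6 (0.810, 0.762 to 0.862), and the effector caspase gene Casp6 at 1.78 and 1.27 (0.713, 0.509 to 0.996). Of 6 outer membrane partners 0 passed (median log2 0.05), with Vdac1, a pore of that membrane, at 66.2 and 68.8 RPKM (1.04, 0.999 to 1.08). The import receptor genes Tomm20 and Tomm22 were at 50.8 and 54.0 RPKM (1.06, 1.03 to 1.098, with 22.8% of reads uniquely placed) and at 109.8 and 113.4 (1.03, 0.986 to 1.08). Mtch2, whose protein binds BID at the membrane, was at 10.5 and 10.0 (0.954, 0.903 to 1.01). Of 5 inhibitors of apoptosis 0 passed (median log2 -0.02). Birc2 and Birc3, which encode ubiquitin ligases, had 3.53 and 4.24 RPKM (1.20, 1.04 to 1.38) and 4.38 and 5.18 RPKM (1.18, 1.06 to 1.32). Xiap, the direct caspase inhibitor, was at 1.64 and 1.49 (0.911, 0.795 to 1.04), and Birc5, which also serves in cell division, at 11.6 and 10.4 (0.895, 0.822 to 0.974).

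In the death receptor pathway, which feeds into BID, 6 of 8 genes were kept and 0 passed (median log2 -0.09). Casp8, the protease that cuts BID, had 7.58 and 6.18 RPKM (0.815, 0.725 to 0.915), and the adaptor gene Tradd 3.44 and 2.58 (0.751, 0.601 to 0.939). The adaptor gene Fadd was at 2.10 and 2.63 (1.254, 1.05 to 1.49; 23.1% of reads uniquely placed), and the receptor gene Tnfrsf10b at 1.77 and 1.38 (0.782, 0.617 to 0.990). Of 7 genes for the turnover of MCL1 protein 6 were kept and 0 passed (median log2 0.03). The deubiquitinase gene Usp9x was at 11.0 and 11.3 RPKM (1.03, 0.985 to 1.07), and the kinase genes Gsk3a and Gsk3b at 25.9 and 27.5 and at 2.88 and 3.12. Btrc, of a ubiquitin ligase complex, was at 1.38 and 0.990 (0.716, 0.591 to 0.869).

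Of 15 transcription regulators known for family genes 13 were kept (median log2 0.02). In each direction 1 passed 1.5-fold, where 2.41% of all kept features were higher and 2.11% lower. Foxo3, an activator of Bcl2l11 and Bbc3 in other cells, was 1.53-fold higher (4.56 and 6.99 RPKM, 1.42 to 1.66). Ddit3, which encodes CHOP, had 9.19 and 5.66 RPKM, a ratio of 0.616 (0.531 to 0.715). Foxo1 was at 2.17 and 2.70 (1.24, 1.11 to 1.39), and Srf at 2.75 and 3.91 (1.42, 1.23 to 1.64), with 42.6% of its reads uniquely placed.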

How the data were processed

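Total RNA depleted of ribosomal RNA was sequenced, as the labels' protocols state, on the Ion Proton from 1 untreated and 1 cycloleucine-treated culture. The deposited table gives counts of reads per feature (gene, exon, intron and exon-exon reads, total and unique), and RPKM values, per the file headers. The deposited RPKM equal exon reads over exon length and total gene reads, as checked from the values. Coordinates are of mm10, the build in the submitters' processing notes. For aligner, counting tool, annotation release and strand: not given in the sources used here. Overlapping genes may therefore share reads. The table had 0 columns of other libraries.

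Ratios are plain RPKM ratios with 95% intervals from the exact binomial (Clopper-Pearson) limits of each share of reads, scaled by library totals (unique gene reads for junction reads). Levels have exact Poisson intervals, role sums and intron to exon changes (0.5 added to each count) normal approximations. A difference was counted at a ratio of 1.5. The intervals were tested on simulated counts that hold the sampling of reads only. With no copied reads and no spread between cultures in them, that test cannot speak for either. With 1 library per group no test and no left-out replicate was possible. Alternatives were unique or junction reads, a pseudocount, other filters, folds, scalings and lengths, and no filter. Coding sequences, lengths and strands came from GENCODE M21, and promoter windows from RefSeq (GRCm38.p6). All 10 members were named, and up to 4 kept genes of each of 7 other lists with the largest change. Trp53, Bcl2l13, Ggnbp1, Bcl2l2, Bik, Bok, Hrk, Bcl2l10 and the Bcl2a1 genes are named outside that rule, after their values were seen. The members and lists were chosen with earlier results of these data known. Python 3.11.15, numpy 2.4.6, pandas 2.3.3, scipy 1.17.1 and biopython 1.88 were used.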

Additional observations from a re-analysis of the deposited data

How the results depend on the processing

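With 1 library a condition, none of these differences has a replicate check, and low counts leave wide intervals on the junction ratios of Bmf and Pmaip1 and the intron ratios of Pmaip1, Bak1 and Bmf. No paired analysis was possible because neither condition has a second library, and leaving out a replicate could not be run. Junction reads per intron, the sum without Bak1 and the other measures of Bax to Bcl2l1 and of the ratios between sums were chosen after seeing the data.

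The count of members at least 1.5-fold higher, 1 in the report, was 0 with a pseudocount of 1, 0 at 2-fold, 3 at the smaller size of 0.32 on the log2 scale (Mcl1, Pmaip1 and Bmf) and 3 from junction reads (the same genes). The count at least 1.5-fold lower, 0 in the report, was 1 from junction reads (Bid), 1 at 0.32 (Bid) and 1 unfiltered (Bcl2). Of all kept features 219 were higher and 192 lower, and these counts became 76 and 59 with a pseudocount of 1, 747 and 567 from junction reads, 2329 and 2138 unfiltered, 138 and 102 above a minimum of 200 reads, 45 and 46 at 2-fold and 811 and 687 at 0.32. Fewer features enter at that minimum and more unfiltered, and the junction counts rest on fewer reads. At 2-fold and at 0.32 only the size changes, so those counts are of the same 9081 kept features. For junction reads, the larger minimum and no filter no share was taken, so the member counts there have none beside them. Unique reads, a pseudocount of 0.1, both rescalings and the wider background kept every count within 1.5 times.

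The ratio of Mcl1 to Bcl2l1 in the untreated library, 1.29 in the report, was 0.739 by the longest transcript and 1.71 by junctions. In the cycloleucine library, 1.84 in the report, it was 1.05 and 2.95. By the longest transcript the guardian, effector and BH3-only sums were 112, 49.6 and 30.5 in the untreated and 128, 47.7 and 32.03 in the cycloleucine library, a matter of the length alone. For Bax that length, 1100 bases, is above its 869 bases of counted exon, which lowers the effector sum. The effector sum was 40.5 and 39.2 from unique reads, a lower bound because of Bak1, and 37.5 and 36.2 without Bak1. The number of members with an intron to exon ratio at least 1.5-fold lower, 0 in the report, was 1 against junction reads (Mcl1). The share of all genes past that size against junction reads was not counted.

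Of 59 alternative values for the log2 ratio of single members, 48 stayed within the counting interval of the reported value and 10 left it, among them Bax (0.15) and Bak1 (0.06), above 0 from junction reads. Bcl2l11, whose interval lay above 0, turned round at -0.28 from junction reads. The cause was not tested. Of 40 alternative levels 15 left their interval and of 21 intron to exon changes 2 did.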
